A study of Mus musculus with 12 samples.

Results

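The genes described here encode integrin subunits, laminin chains, thrombospondins, fibronectin (Fn1), tenascin C (Tnc) and vitronectin (Vtn), the receptors by which cells hold on to the matrix and the glycoproteins to which they bind. They were chosen by gene symbol alone, as all listed integrin alpha and beta subunits, laminin chains and thrombospondins 1 to 4, together with Fn1, Tnc and Vtn, over the 4 time points of the series. The families were proposed with the levels of some of these genes in the same libraries already known, so the values that made the families of interest are those of the comparisons below. The rule gave 44 of the 28244 genes listed, made up of 18 integrin alpha, 8 integrin beta, 11 laminin, 4 thrombospondin and 3 other genes. RNA was sequenced from pellets of cartilage progenitor cells taken from the heads and condyles of the femurs and tibiae of C57/BL6 pups aged 5 or 6 days. Each pellet started from 500000 cells and spent 7 days in chondrogenic medium before osteogenic medium was given, and every group shared that chondrogenic phase. The 4 groups of 3 libraries were harvested on D7, D8, D10 or D28, after 0, 1, 3 and 21 days of osteogenic medium. No source states that the replicates were separate cultures or animals, so p-values measure the spread between these samples, which may be technical.

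Integrins are receptors made of an alpha and a beta subunit, and the pairing of the subunits decides which matrix protein is bound. The alpha subunits of Itga1, Itga2, Itga10 and Itga11 pair with the beta subunit of Itgb1 to bind collagens, those of Itga5, Itga8, Itgav and Itga2b bind proteins with an arginine-glycine-aspartate motif such as fibronectin, and those of Itga3, Itga6 and Itga7 bind laminins. Laminins are trimers of an alpha, a beta and a gamma chain found in basement membranes and around single cells, while thrombospondins and tenascins are matricellular proteins that modulate adhesion. In cartilage, chondrocytes use such receptors to sense a matrix rich in type II collagen, and the same receptor families act later in bone.

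Levels are given as deposited, as the log2 of the equalized read count plus 1, so a difference of 1 is a doubling. The equalization gave every library nearly the same distribution of values and the original totals are not kept. Depth was therefore read from the lowest levels, and it was 0.730 to 1.05 for D10 libraries, against 1.20 to 1.31 for those of D28 (relative units). The chondrocyte markers were present as the labelled source requires, with Sox9 between 11.999 and 12.61 in all libraries and 0 of 10 markers at or under 3 reads in every library of a time point. All 44 genes passed the filter on low values, and 37 held more than 3 reads in every library. In bulk RNA, fewer cells of a type and less RNA per cell cannot be told apart.

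A gene was called in a comparison at an adjusted p under 0.05 (limma with Benjamini-Hochberg adjustment over the 17674 genes tested) together with a log2 change of 1 or more in size. At D8 against D7, 3 of the 44 genes were higher and 5 lower, beside 7.04% of all genes tested called, 3.23% higher and 3.81% lower, and without D8 replicate 2 the counts were 5 and 5. At D10 against D8, 2 were higher and 4 lower, beside 9.66% called, 4.08% higher and 5.58% lower. Both rises, Itgb8 and Lama3, were lost without D10 replicate 1 (0.91 and 0.78), that of Itgb8 also without D8 replicate 3 (0.92), and Lama3 (lost under 6 of 19 other settings) had overlapping libraries at D8 and D10. Of the 4 falls (Lamb3, Thbs1, Thbs3 and Thbs4), Lamb3 was lost without D8 replicate 2 (-0.99) or D10 replicate 1 (-0.997), Thbs1 without D10 replicate 1 (-0.88) and Thbs3 without D8 replicate 3 (-0.97), all short of the fold threshold. At D10 against D7, 4 were higher and 13 lower, beside 18.9% called, 8.5% higher and 10.4% lower. At D28 against D10, 14 were higher and 11 lower, beside 27.5% called, 13.8% higher and 13.7% lower. At D28 against D7, 5 were higher and 12 lower, beside 17.3% called, 8.63% higher and 8.66% lower. The 5 include Vtn, which passed the filter on low values only through D28, where it is highest. Because the families were proposed with results known, nothing is read from the share of them that was called. The median log2 fold change of the 44 genes was -0.30 at D10 against D7 and 0.20 at D28 against D10, where the medians of all genes tested were 0.05 and -0.10. In all, 32 genes were called in at least 1 comparison and 12 in none. Comparisons that share a time point share its libraries. Markers of cell types moved in the same comparisons: 7 of 10 chondrocyte and 4 of 4 adipocyte markers were lower at D10 than at D7, and at D28 all 4 adipocyte markers were higher than at D7, with a summed level of 15.3 to 15.7 against 11.9 to 12.1. From D10 to D28, 6 of 10 chondrocyte markers were higher and 1 lower. Of 8 osteoblast markers, 3 were higher and 4 lower at D10 than at D7, and 4 were higher and 0 lower at D28 than at D10. At D28 against D7, 3 osteoblast markers were higher and 2 lower, and 2 chondrocyte markers were higher and 2 lower. Of 3 hypertrophic chondrocyte markers, 0 were higher and 2 lower at D10 than at D7. From D10 to D28, 2 of these were higher and 1 lower, and 0 were higher and 1 lower at D28 than at D7. The part of all these markers in the changes below was not tested.

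**Figure D1:**
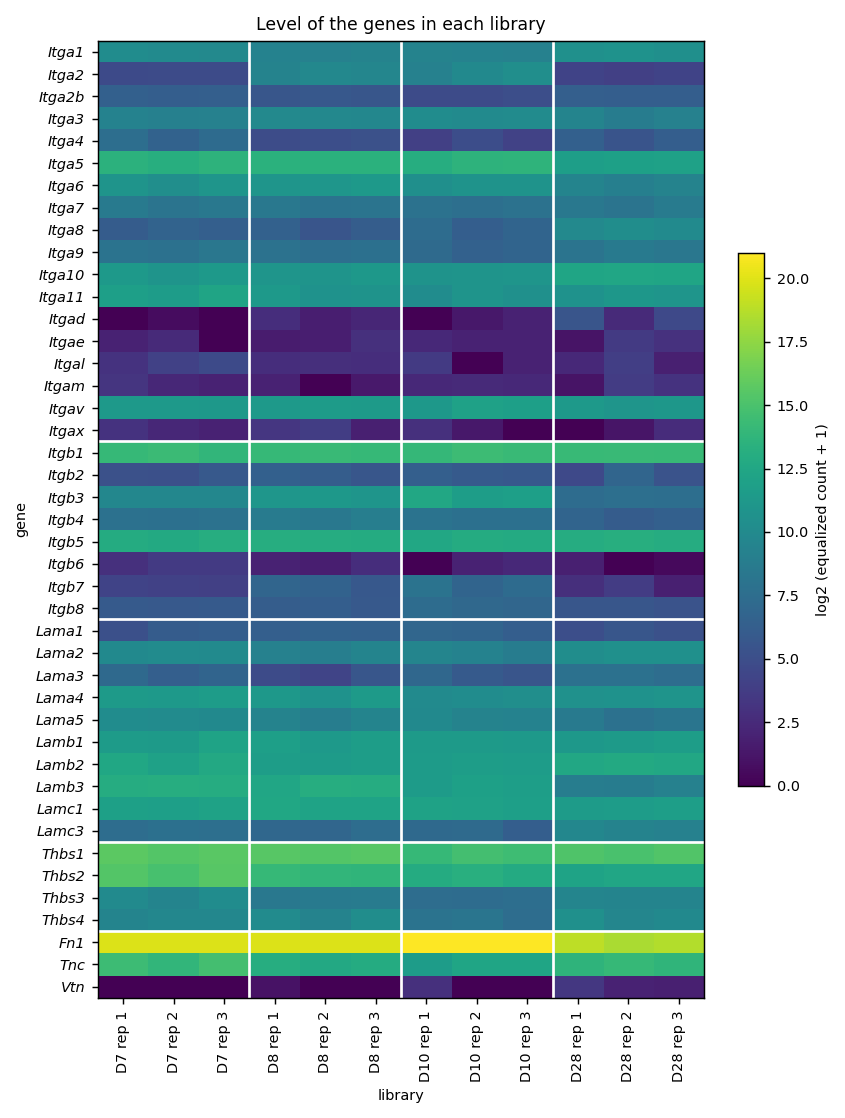
Level of 43 of the 44 genes (vertical axis, gene) in each of the 12 libraries (horizontal axis), with colour giving log2 of the equalized count plus 1 and white lines separating families and time points. Fn1 lies at 18.3 or above throughout, whereas several leukocyte integrin subunits stay near 0 to 5.55.

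The largest rises over the first osteogenic day were those of Itga2, which encodes the alpha subunit of a collagen receptor, and Itgb7, a beta subunit best known from lymphocyte homing receptors. Over the same day Thbs2 and Tnc fell. Medium and time in culture changed together, so their effects cannot be told apart. The windows around the RefSeq start sites of these 4 genes (GRCm38.p6, 250 bases before to 50 after, printed on the gene's strand) are shown because these genes were among the 8 called at D8, and capitals mark the GC box letters GGGCGG, searched on both strands. Itga2 lies at chr13:114932051-114932350 (minus strand), Itgb7 at chr15:102231886-102232185 (minus strand), Thbs2 at chr17:14694213-14694512 (minus strand) and Tnc at chr4:64046966-64047265 (minus strand). The table held another Tnc window, at chr4:64046887-64047186, which overlaps the one shown and holds the same GC box.
Itga2: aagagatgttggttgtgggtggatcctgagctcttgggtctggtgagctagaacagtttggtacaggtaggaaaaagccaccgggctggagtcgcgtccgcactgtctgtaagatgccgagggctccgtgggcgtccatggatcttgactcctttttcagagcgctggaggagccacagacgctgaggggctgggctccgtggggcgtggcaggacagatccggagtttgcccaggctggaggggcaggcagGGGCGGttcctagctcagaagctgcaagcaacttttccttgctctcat
Itgb7: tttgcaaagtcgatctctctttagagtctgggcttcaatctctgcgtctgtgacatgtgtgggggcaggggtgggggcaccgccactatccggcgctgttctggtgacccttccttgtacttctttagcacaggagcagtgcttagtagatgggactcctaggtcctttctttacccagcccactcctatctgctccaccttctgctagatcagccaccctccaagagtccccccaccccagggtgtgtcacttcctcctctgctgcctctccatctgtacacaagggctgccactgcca
Thbs2: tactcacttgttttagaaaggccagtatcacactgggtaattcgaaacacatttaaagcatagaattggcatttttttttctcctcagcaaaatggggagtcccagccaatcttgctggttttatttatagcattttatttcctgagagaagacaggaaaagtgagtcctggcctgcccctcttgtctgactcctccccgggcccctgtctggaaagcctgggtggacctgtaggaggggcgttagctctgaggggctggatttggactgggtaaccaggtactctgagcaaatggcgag
Tnc: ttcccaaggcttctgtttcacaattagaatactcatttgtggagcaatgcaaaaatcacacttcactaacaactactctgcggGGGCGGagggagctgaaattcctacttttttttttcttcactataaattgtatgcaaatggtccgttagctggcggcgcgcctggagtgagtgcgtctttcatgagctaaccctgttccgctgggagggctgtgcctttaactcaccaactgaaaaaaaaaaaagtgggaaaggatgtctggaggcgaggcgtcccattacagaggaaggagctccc
The GC box occurred in the windows of Itga2 and Tnc and in 35.7% of the 32851 promoter windows searched. The letters TGANTCA of an AP-1 site (7.81% of windows), TGTGGT of a RUNX site (16.8%) and GGAATG of a TEAD site (14.7%) were searched on both strands and were found in none of the 4 windows. The 4 windows and the motifs were chosen after the data were seen, and the letters are a description of the windows. Of the other genes called at D8, the table held Itga4, whose window had a RUNX match and a GC box, and Thbs3, whose window had a GC box. The table held windows for 28 of the 44 genes.

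Among the collagen receptor subunits, Itga2 (chr13:114833081-114932100) rose and fell again, Itga11 fell, and Itga1 and Itga10 were highest at D28. Itga2 read 4.69, 4.80 and 4.79 at D7, 9.39, 9.76 and 9.66 at D8, 9.25, 9.97 and 10.40 at D10, and 4.20, 4.00 and 4.22 at D28. The D8 and D10 libraries lay far above all others, and the D28 libraries lay below those of D7. The rise at D8 was 4.84 ± 0.24 (SE), 28.7-fold (adjusted p = 2e-08), and the fall from D10 to D28 was 53.2-fold (log2 fold change -5.73 ± 0.24, adjusted p = 5.5e-11). No other of the 44 genes moved as far in either direction in the 5 comparisons. Itga11, the subunit of a receptor for fibrillar collagen, read 11.87, 11.65 and 12.25 at D7, 11.32, 10.72 and 10.82 at D8, 10.19, 10.87 and 10.58 at D10, and 10.68, 11.08 and 10.92 at D28. The D7 libraries were the highest, and the other 3 time points overlapped. Its log2 fold change was -1.38 ± 0.19 at D10 (adjusted p = 4.1e-05) and -1.03 ± 0.19 at D28 (adjusted p = 0.00061), both against D7. The D28 value was -0.87 without D7 replicate 3, -0.93 without D28 replicate 1 and -0.98 with median-of-ratios scaling, all short of the fold threshold.

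Itga10, the collagen receptor subunit typical of chondrocytes, stood at 11.27, 10.91 and 11.30 at D7, 10.95, 10.89 and 11.24 at D8, 10.78, 10.85 and 10.93 at D10, and 12.35, 12.42 and 12.34 at D28. The D28 libraries were above all others, and the earlier time points overlapped. Its log2 fold change at D28 was 1.21 ± 0.12 against D7 (adjusted p = 1.2e-06). The exons of Itga10 share 33.5% of their bases with a gene model on the same strand (Gm42957), so its reads may have been split or left uncounted. Itga1 read 10.21, 10.04 and 9.86 at D7, 9.34, 9.23 and 9.39 at D8, 9.36, 9.31 and 9.25 at D10, and 10.58, 10.74 and 10.49 at D28. It was low at D8 and D10 without overlap with the other time points, and it rose by 1.29 ± 0.11 from D10 to D28 (adjusted p = 1.4e-07).

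Of the subunits that bind fibronectin and its relatives, Itga5 fell late, Itga8 rose late, and Itgav was called in none of the 5 comparisons. Itga5, the classical fibronectin receptor subunit, stood at 13.46, 13.16 and 13.58 at D7, 13.45, 13.44 and 13.43 at D8, 13.11, 13.55 and 13.68 at D10, and 11.77, 11.95 and 12.04 at D28. The 9 libraries up to D10 overlapped, and the D28 libraries lay below all of them. The fall at D28 against D7 was 2.78-fold (log2 fold change -1.48 ± 0.15, adjusted p = 1.2e-06). Itga8, whose receptor binds nephronectin, read 6.14, 6.71 and 6.32 at D7, 6.54, 5.56 and 6.21 at D8, 7.38, 6.27 and 6.79 at D10, and 9.93, 10.27 and 10.02 at D28. The D28 libraries stood above all others, and the rise against D7 was 3.68 ± 0.28, 12.8-fold (adjusted p = 9.4e-08). Npnt, which encodes nephronectin, was also higher at D28, at 9.86 ± 0.22 (SD) against 5.77 ± 0.60 at D7 (log2 fold change 4.09 ± 0.60, adjusted p = 5.9e-05). Itgav lay between 10.97 and 11.98 in all libraries. Itga2b, the platelet fibrinogen receptor subunit, stood at 4.77 at its lowest and 6.40 at its highest, and was lower at D10 than at D7 (log2 fold change -1.46 ± 0.23, adjusted p = 9.6e-05) before it returned to 6.31 ± 0.05 (SD) at D28. Beside it, 3 of 6 platelet and megakaryocyte markers (Gp1bb, Ppbp and Gp6) had at most 3 reads in every library. Pf4, another of them, read 4.34, 7.01 and 3.91 at D28 and was higher than at D7 (log2 fold change 3.81 ± 0.81, adjusted p = 0.0016), whereas Gp1ba was lower (3.38 ± 0.27 (SD) against 4.51 ± 0.42, log2 fold change -1.13 ± 0.41, adjusted p = 0.039) and Gp9 was not called (0.54 ± 0.56 (SD) against 1.44 ± 1.26). The summed level of the list, highest where Pf4 was highest, was 4.42 to 5.29 at D7, 4.59 to 5.20 at D8, 4.16 to 4.75 at D10 and 4.74 to 7.12 at D28, and its part in the level of Itga2b was not tested.

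Of the laminin receptor subunits, Itga6 and Itgb4 were lower at D28 than at D7. Itga6 read 10.86, 10.39 and 10.96 at D7, 10.97, 11.01 and 11.35 at D8, 10.47, 10.75 and 10.78 at D10, and 9.47, 9.08 and 9.43 at D28. Its D28 libraries were the lowest, without overlap, and the log2 fold change against D7 was -1.41 ± 0.16 (adjusted p = 4.7e-06). Itgb4, the partner of the Itga6 product in hemidesmosomes, stood at 7.80, 7.72 and 7.92 at D7, 8.70, 8.39 and 8.999 at D8, 7.98, 7.73 and 7.75 at D10, and 6.78, 6.13 and 6.42 at D28. It was highest at D8 and lowest at D28, with a log2 fold change of -1.37 ± 0.19 at D28 against D7 (adjusted p = 4.5e-05). Itga3 (8.81 to 10.20) and Itga7 (7.63 to 8.72), a subunit of the muscle laminin receptor, were called in no comparison. Beside Itga7, 5 of 6 skeletal muscle markers were lower at D10 and 6 of 6 at D28 than at D7, and their summed level went from 11.05 to 11.47 at D7 to 3.32 to 5.74 at D28. Their part in the level of Itga7 was not tested.

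Itga9 and Itga4, whose receptors bind tenascin C, osteopontin and cell surface ligands, had their lowest means at D10. Itga9 read 7.97, 7.83 and 8.36 at D7, 7.91, 7.55 and 7.75 at D8, 7.28, 6.54 and 6.79 at D10, and 8.12, 8.54 and 8.36 at D28. The D10 libraries lay below all others, with log2 fold changes of -1.18 ± 0.21 against D7 (adjusted p = 0.00029) and 1.47 ± 0.21 from D10 to D28 (adjusted p = 2.3e-05). The mean of Itga4 went from 7.19 ± 0.51 (SD) at D7 to 5.04 ± 0.15 at D8 and 4.34 ± 0.53 at D10, and was 6.04 ± 0.54 at D28. Its D8 and D10 libraries overlapped, and it was not called at D10 against D8 (-0.70, adjusted p = 0.16). It fell 4.43-fold by D8 (log2 fold change -2.15 ± 0.36, adjusted p = 0.00056) and rose by 1.70 ± 0.36 from D10 to D28 (adjusted p = 0.00085). The call at D28 against D7 (log2 fold change -1.15, adjusted p = 0.019) was lost without D7 replicate 1 (-0.93), D7 replicate 3 (-1.08) or D28 replicate 2 (-0.84).

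Of the beta subunits, Itgb3 and Itgb7 rose with Itga2 in the first days and fell by D28, while Itgb1 and Itgb5 were called in none of the 5 comparisons. Itgb3 (chr11:104608000-104670476), the partner of Itgav and Itga2b products, stood at 9.74, 9.70 and 9.71 at D7, 11.04, 11.20 and 10.94 at D8, 12.55, 11.71 and 11.89 at D10, and 7.40, 7.68 and 7.56 at D28. The 4 time points did not overlap. The log2 fold change against D7 was 1.34 ± 0.17 at D8 (adjusted p = 5.4e-05), 2.33 ± 0.17 at D10 (adjusted p = 4.6e-08) and -2.17 ± 0.17 at D28 (adjusted p = 9.3e-08), and the fall from D10 to D28 was 22.6-fold. Itgb7 read 4.22, 4.09 and 4.00 at D7, 6.87, 6.62 and 5.80 at D8, 7.96, 6.81 and 7.38 at D10, and 2.82, 3.77 and 1.81 at D28. All D8 and D10 libraries lay above those of D7 and D28, with log2 fold changes of 2.33 ± 0.46 at D8 (adjusted p = 0.0019) and 3.28 ± 0.46 at D10 (adjusted p = 3.5e-05). Its call at D28 against D7 (-1.30, adjusted p = 0.035) was lost under 9 of 19 other settings, among them without any 1 of the D7 libraries (-1.35 to -1.24) and without D28 replicate 1 (-1.31) or replicate 3 (-0.80).

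Itgb8, a subunit of a receptor that activates latent TGF-beta, ranged from 5.38 to 7.38 and was higher at D10 than at D7 (log2 fold change 1.23 ± 0.22, adjusted p = 0.00041). Itgb1, the common partner, lay between 13.85 and 14.36, and Itgb5, a partner of the Itgav product, between 12.62 and 13.18. The largest difference between time point means of Itgb1 was thus smaller than the SD of its D7 libraries (0.23). Of 5 T cell markers set beside Itgb7, Cd3e, Cd3d, Cd3g and Cd8a held at most 3 reads in every library. The fifth, Lck, carried the summed level of the list, which was 4 to 4.61 at D7, 5.71 to 6.36 at D8, 5.84 to 6.28 at D10 and 0.87 to 2.52 at D28, and its part in the course of Itgb7 was not tested.

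**Figure D2:**
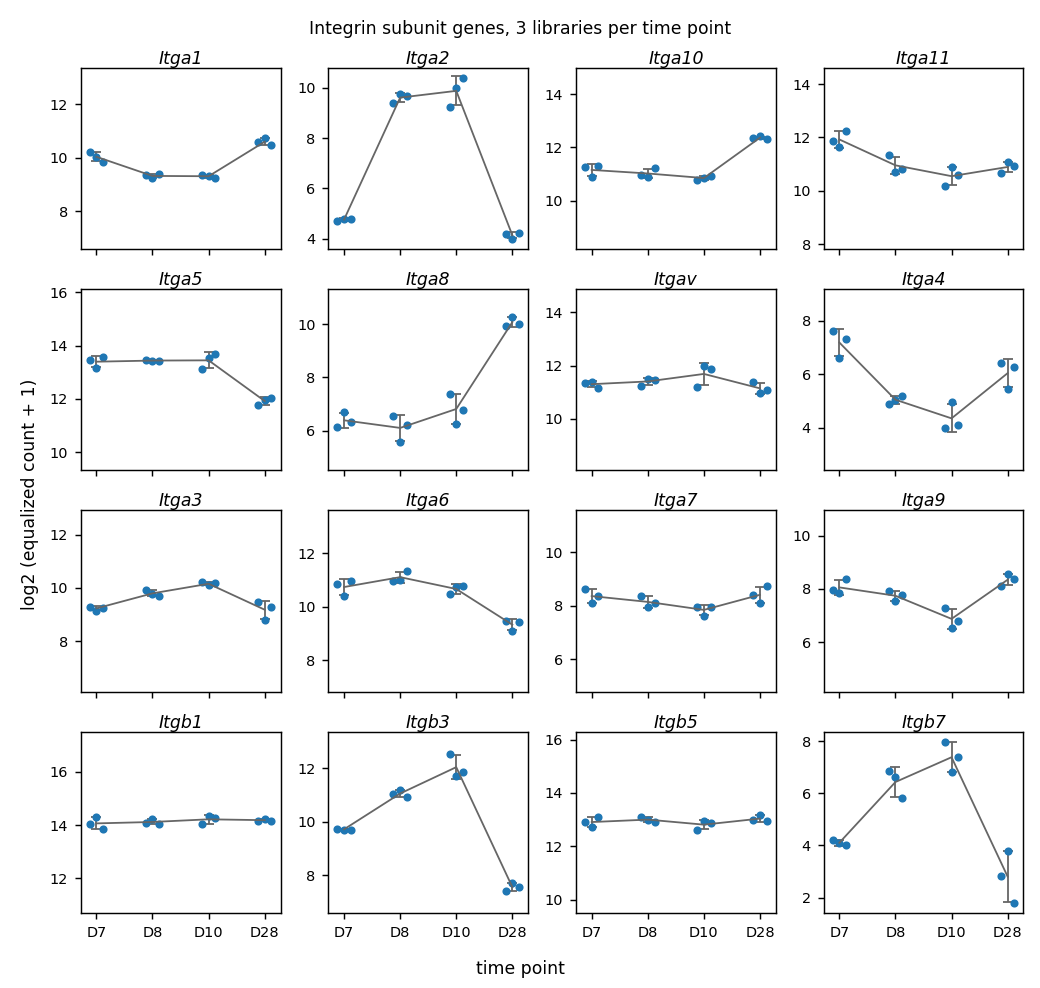
Level (vertical axis, log2 of the equalized count plus 1, own range per panel) of 16 integrin subunit genes by time point (horizontal axis), with 1 point per library and lines and bars for the mean and SD of 3 libraries. Itga2, Itgb3 and Itgb7 peak at D8 and D10, Itga8 and Itga10 stand highest at D28, and Itgb1 stays between 13.85 and 14.36.

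Of the subunits known from leukocytes, 5 alpha subunits were low. Itgal, Itgam, Itgax, Itgae and Itgad lay between 0 and 5.55, and Itgb2, the usual partner of these except Itgae, between 4.67 and 6.82. The highest Itgb2 value was that of D28 replicate 2, the library that also held the highest Lyz2 (11.8), Csf1r (7.92) and Adgre1 (7.49), which are macrophage markers. Tyrobp, Fcer1g, Aif1 and Cd53 were also highest there, whereas Cd68, Cd14, Laptm5, Coro1a and Ptprc were highest in other libraries. The summed level of the 12 leukocyte markers ranged from 10.3 to 12.3 at D28 and from 10.3 to 10.8 in the earlier libraries. Of the 12 markers, 7 were higher and 1 lower at D28 than at D10, and 1 was higher and 1 lower at D28 than at D7. Their part in these genes was not tested. Itgad read 0, 0.74 and 0 at D7 and 5.55, 2.48 and 4.62 at D28, at least 2.78-fold higher when values under the level of 3 reads (2.87) are raised to it. That setting removed the call at D28 against D7 (adjusted p = 0.06). The exons of Itgad overlap other gene models over 7.32% of their bases on the same strand and 12.4% on the opposite one, and those of Itgam over 68.7% on the same strand. Itgal was called lower at D10 than at D7 (log2 fold change -2.12 ± 0.77, adjusted p = 0.038), but its D7 and D10 libraries overlapped and the call was lost under 9 of 18 other settings. Without D10 replicate 2 or 3 its value was -1.20 or -2.19, and without D7 replicate 2 or 3 it was -2.06 or -1.74. Itgb6, an epithelial subunit, was at most 3.56 and was at or under 3 reads in all D10 libraries, at least 1.38-fold lower than at D7. The D10 call (adjusted p = 0.037) was lost under 6 of 18 other settings, with -1.11 without D10 replicate 1 and -2.07 to -1.74 without any 1 of the D7 libraries. At D28 against D7 it was again called lower (-2.57 ± 0.67, adjusted p = 0.0068), and with low values raised the change was -0.47.

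On a per-length scale (equalized count per kb of annotated exon, mean of 3 libraries), the leading alpha subunit changed with time. At D7 the order was Itga5 (2203), Itga11 (768), Itga10 (444), Itgav (236) and Itga6 (192), and the ranges of Itgav and Itga6 overlapped. At D28 Itga10 (1020) led Itga5 (788), Itga11 (372), Itgav (213) and Itga8 (147), and none of these neighbours overlapped. Itga2 moved from 3.66 per kb at D7 to 138 at D10, where it overlapped Itga6 (181). Among the beta subunits, Itgb1 led Itgb5 and Itgb3 at every time point, from 4226 against 2176 and 142 at D7 to 4557 against 2373 and 31.6 at D28. With the longest coding transcript in place of all exons, 12 of 18 alpha subunits kept their place at D7 and 12 of 18 at D28.

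**Figure D3:**
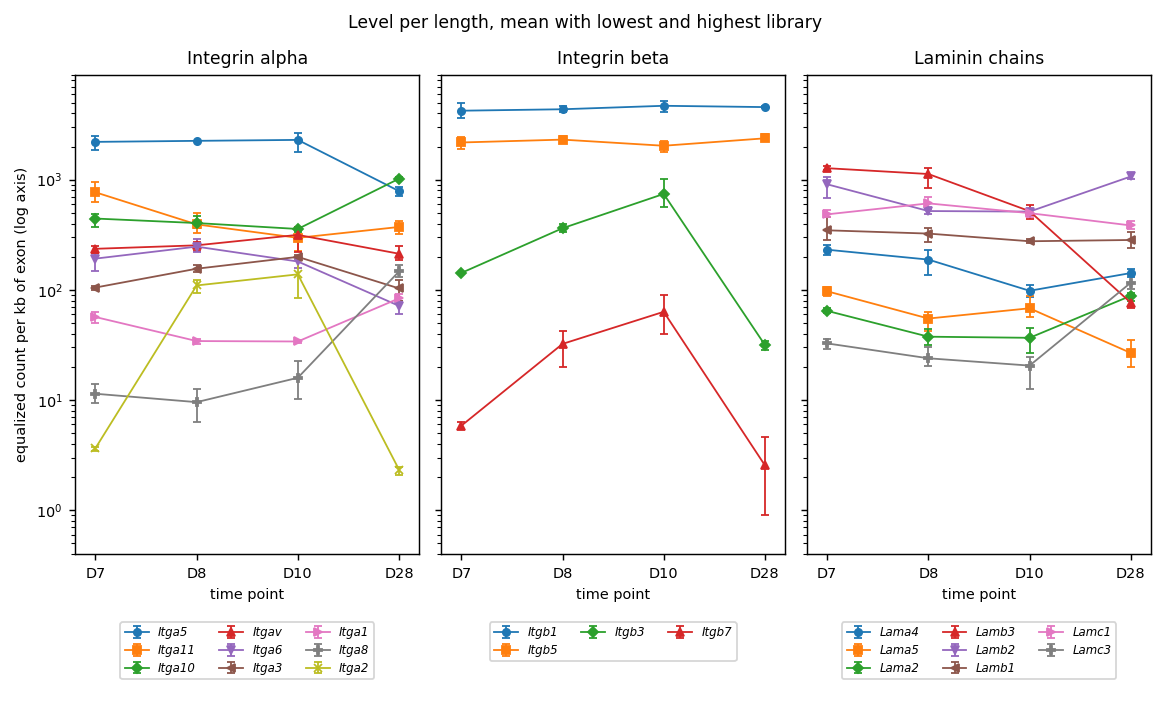
Level per length (vertical axis, equalized count per kb of exon, log axis) of 9 integrin alpha, 4 integrin beta and 8 laminin genes at the 4 time points (horizontal axis), with points for the mean and bars from the lowest to the highest library. Itga10 passes Itga5 at D28 (1020 against 788 per kb), and Lamb3 goes from the highest laminin chain plotted at D7 to 76.5 per kb at D28.

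Among the laminin chains, Lamb3 was lower at D10 and lower still at D28, Lama5 was lower at D28, and Lamc3 rose at D28. Lamb3 (chr1:193207699-193343878), the beta chain of an epithelial laminin that also holds the Lama3 chain, stood at 12.97, 13.09 and 13.04 at D7, 12.44, 13.05 and 13.01 at D8, 11.52, 11.93 and 11.74 at D10, and 8.90, 8.82 and 9.21 at D28. The D7 and D8 libraries overlapped, the D10 libraries lay below them and the D28 libraries below all. The log2 fold change against D7 was -1.30 ± 0.16 at D10 (adjusted p = 8.3e-06) and -4.06 ± 0.16 at D28 (adjusted p = 7.9e-11), a 16.7-fold fall. Lama3 had another course. It was lower at D8 than at D7 (4.93 ± 0.66 (SD) against 6.76 ± 0.41, log2 fold change -1.84 ± 0.38, adjusted p = 0.003). It was higher at D28 than at D10 (7.72 ± 0.19 against 6.15 ± 0.78, log2 fold change 1.57 ± 0.38, adjusted p = 0.0026), and it was not called at D28 against D7 (0.96, adjusted p = 0.06). Epithelial markers summed to between 6.26 and 7.05 at D7, 7.26 and 7.84 at D8, 8.46 and 8.67 at D10, and 5.43 and 7.72 at D28, and their part in the level of Lamb3 was not tested. At D10 the sum was carried by Krt18 (8.31 ± 0.13 (SD) against 4.98 ± 0.42 at D7), the 1 of the 6 called higher than at D7, while Cdh1 stood at 3.66 ± 0.59 against 4.64 ± 1.03. At D28 Cdh1, at 1.97 ± 0.93, was the 1 of the 6 called lower than at D7 (log2 fold change -2.67 ± 0.57, adjusted p = 0.0016).

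Lama5, an alpha chain of adult basement membranes, read 10.24, 10.12 and 9.96 at D7, 9.40, 8.92 and 9.48 at D8, 9.98, 9.38 and 9.35 at D10, and 8.65, 7.83 and 8.17 at D28. The D28 libraries were below all others, and the log2 fold change against D7 was -1.89 ± 0.21 (adjusted p = 4.5e-06). Lamc3, a gamma chain, stood at 7.49, 7.76 and 7.66 at D7, 7.01, 6.96 and 7.54 at D8, 7.22, 7.24 and 6.29 at D10, and 9.69, 9.41 and 9.27 at D28. The D28 libraries were the highest, with a log2 fold change of 1.82 ± 0.24 against D7 (adjusted p = 2.2e-05). Lama4, the alpha chain of vessel walls and mesenchyme, read 11.44, 11.30 and 11.59 at D7, 11.23, 10.68 and 11.43 at D8, 10.03, 10.20 and 10.38 at D10, and 10.64, 10.71 and 10.88 at D28. It was lowest at D10 without overlap (log2 fold change -1.24 ± 0.16 against D7, adjusted p = 1.8e-05). Of 6 endothelial markers, 1 was higher and 0 lower at D10 than at D7, and 0 were higher and 1 lower at D28 than at D7. Their part in the level of Lama4 was not tested.

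Lama2, the alpha chain of muscle and nerve sheaths, stood at 9.96, 10.11 and 10.04 at D7, 9.25, 9.002 and 9.50 at D8, 9.53, 9.28 and 8.79 at D10, and 10.34, 10.57 and 10.56 at D28. Lamb2 read 12.54, 12.03 and 12.65 at D7, 11.66, 11.53 and 11.68 at D8, 11.56, 11.67 and 11.59 at D10, and 12.63, 12.77 and 12.60 at D28. Both were lower at D8 and D10 than in any D7 or D28 library, and from D10 to D28 they rose by 1.29 ± 0.17 (Lama2, adjusted p = 9.2e-06) and 1.06 ± 0.13 (Lamb2, adjusted p = 7.5e-06). Of 4 Schwann cell markers, 0 were higher and 2 lower at D10 than at D7, and 0 were higher and 3 lower at D28 than at D10. Of the 6 skeletal muscle markers, 0 were higher and 4 lower at D28 than at D10. The part of these 2 lists in the level of Lama2 was not tested. Lama1 ranged from 5.07 to 6.95 and was lower at D28 than at D10 (log2 fold change -1.37 ± 0.31, adjusted p = 0.0015). Lamb1 (11.21 to 12.14) and Lamc1 (11.54 to 12.50), the widely expressed chains, were called in no comparison. Per kb of exon, Lamb3 (1271) led Lamb2 (908) and Lamb1 (347) at D7, whereas at D28 Lamb2 (1068) led Lamb1 (283) and Lamb3 (76.5), without overlap of neighbours. Among the alpha chains, Lama4 was first at D7 (231) and at D28 (142), and Lama2 (88.2) stood above Lama5 (26.7) at D28.

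All 4 thrombospondin genes were lower at D10 than at D7, and Thbs2 stayed low. Thbs2 (chr17:14665500-14694235), an inhibitor of angiogenesis, stood at 15.34, 14.91 and 15.54 at D7, 14.03, 13.83 and 13.73 at D8, 12.91, 13.25 and 12.88 at D10, and 12.17, 12.45 and 12.41 at D28. The 4 time points did not overlap, and each was below the one before. The log2 fold change against D7 was -1.40 ± 0.16 at D8 (adjusted p = 2.5e-05), -2.25 ± 0.16 at D10 (adjusted p = 4.3e-08) and -2.92 ± 0.16 at D28 (adjusted p = 3.1e-09), a 7.58-fold fall. Thbs3, a pentameric thrombospondin, read 10.01, 9.47 and 10.25 at D7, 8.43, 8.55 and 8.74 at D8, 7.48, 7.45 and 7.62 at D10, and 9.56, 9.46 and 9.47 at D28. It fell 5.25-fold by D10 (log2 fold change -2.39 ± 0.17, adjusted p = 3.4e-08) and rose by 1.98 ± 0.17 by D28 (adjusted p = 9.7e-08), when it overlapped D7. Exons of Mtx1 on the opposite strand cover 6.59% of those of Thbs3.

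Thbs4, found in tendon and cartilage, stood at 9.52, 9.76 and 9.74 at D7, 10.15, 9.37 and 10.31 at D8, 7.98, 8.17 and 7.46 at D10, and 10.58, 9.60 and 9.95 at D28. The D10 libraries lay below all others, with log2 fold changes of -1.80 ± 0.26 against D7 (adjusted p = 4.5e-05) and 2.17 ± 0.26 from D10 to D28 (adjusted p = 3.9e-06). Thbs1, an activator of TGF-beta, read 15.69, 15.36 and 15.66 at D7, 15.52, 15.41 and 15.54 at D8, 14.05, 14.76 and 14.46 at D10, and 15.20, 14.94 and 15.26 at D28. It was lowest at D10, with a log2 fold change of -1.15 ± 0.18 against D7 (adjusted p = 9.3e-05), which was -0.96 without D10 replicate 1. Per kb of exon, Thbs1 (8059) and Thbs2 (5705) led at D7, and at D28 Thbs1 (5945) stood above Thbs2 (743), Thbs4 (334) and Thbs3 (150).

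Tnc, an antiadhesive protein of growing and injured tissue, was also lowest at D10. It read 14.40, 13.82 and 14.70 at D7, 13.12, 12.68 and 12.91 at D8, 11.63, 12.32 and 12.37 at D10, and 13.68, 14.04 and 13.71 at D28. The D8 and D10 libraries lay below all D7 and D28 libraries, and D7 and D28 overlapped. The log2 fold change against D7 was -1.40 ± 0.22 at D8 (adjusted p = 0.00036) and -2.20 ± 0.22 at D10 (adjusted p = 1.3e-06), and the rise from D10 to D28 was 1.71 ± 0.22 (adjusted p = 9.5e-06).

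**Figure D4:**
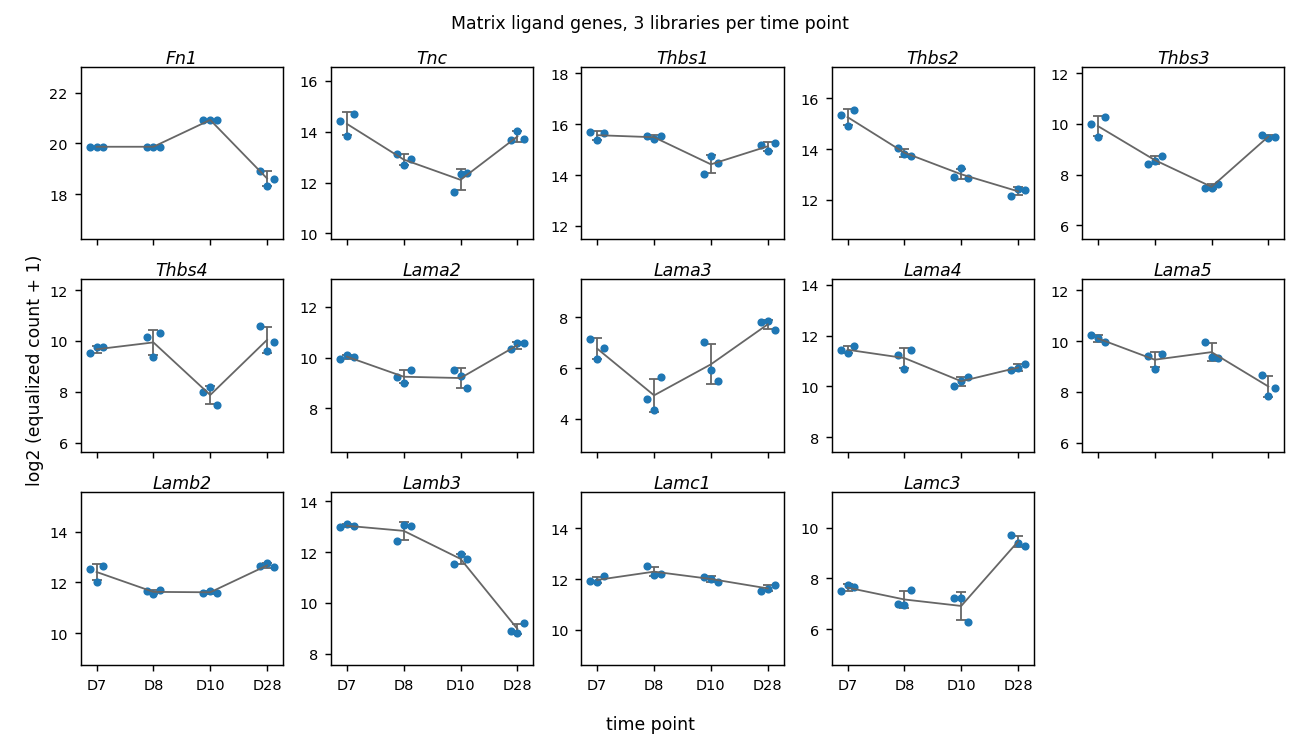
Level (vertical axis, log2 of the equalized count plus 1, own range per panel) of 14 matrix ligand genes by time point (horizontal axis), with 1 point per library and lines and bars for the mean and SD of 3 libraries. Thbs2 declines at each time point from 15.26 to 12.34, Tnc and Thbs3 dip at D10, and Lamb3 falls to 8.98 at D28.

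Fn1, the fibronectin gene, was among the most abundant transcripts in all libraries. It held rank 2 in every D7 and D8 library, behind Col2a1, rank 1 in every D10 library, and ranks 3, 5 and 4 at D28. Its levels were 19.87 in all D7 and D8 libraries, 20.92 in all D10 libraries, and 18.92, 18.32 and 18.61 at D28. The equalization gives each rank the same value, so the SD of 0 within D7, D8 and D10 comes from the ranks and not from the precision of the measurement. The fall from D10 to D28 was 2.30 on the log2 scale, with an adjusted p of 0.00047 and of 0.45 when low values were raised to the level of 3 reads. Its standard error (0.449) came mostly from the spread that limma pools over genes. The p-values of Fn1 therefore say little about its own spread between libraries. The call at D28 against D7 (-1.25, adjusted p = 0.04) was lost under 12 of 19 other settings, among them without any 1 of the D7 or D28 libraries and without D8 replicate 1 or 2 (values from -1.40 to -1.10). Vtn, the vitronectin gene, read 0 in all D7 libraries and 3.37, 2.03 and 1.81 at D28, at least 1.12-fold higher. It passed the filter (a level of 1 or more in 3 libraries) only through D28, where it was highest, so its values there are a description. Its call was lost with low values raised (adjusted p = 0.31), without D7 replicate 1 (2.40, adjusted p = 0.051) and without D28 replicate 1 (1.92, adjusted p = 0.099).

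**Figure D5:**
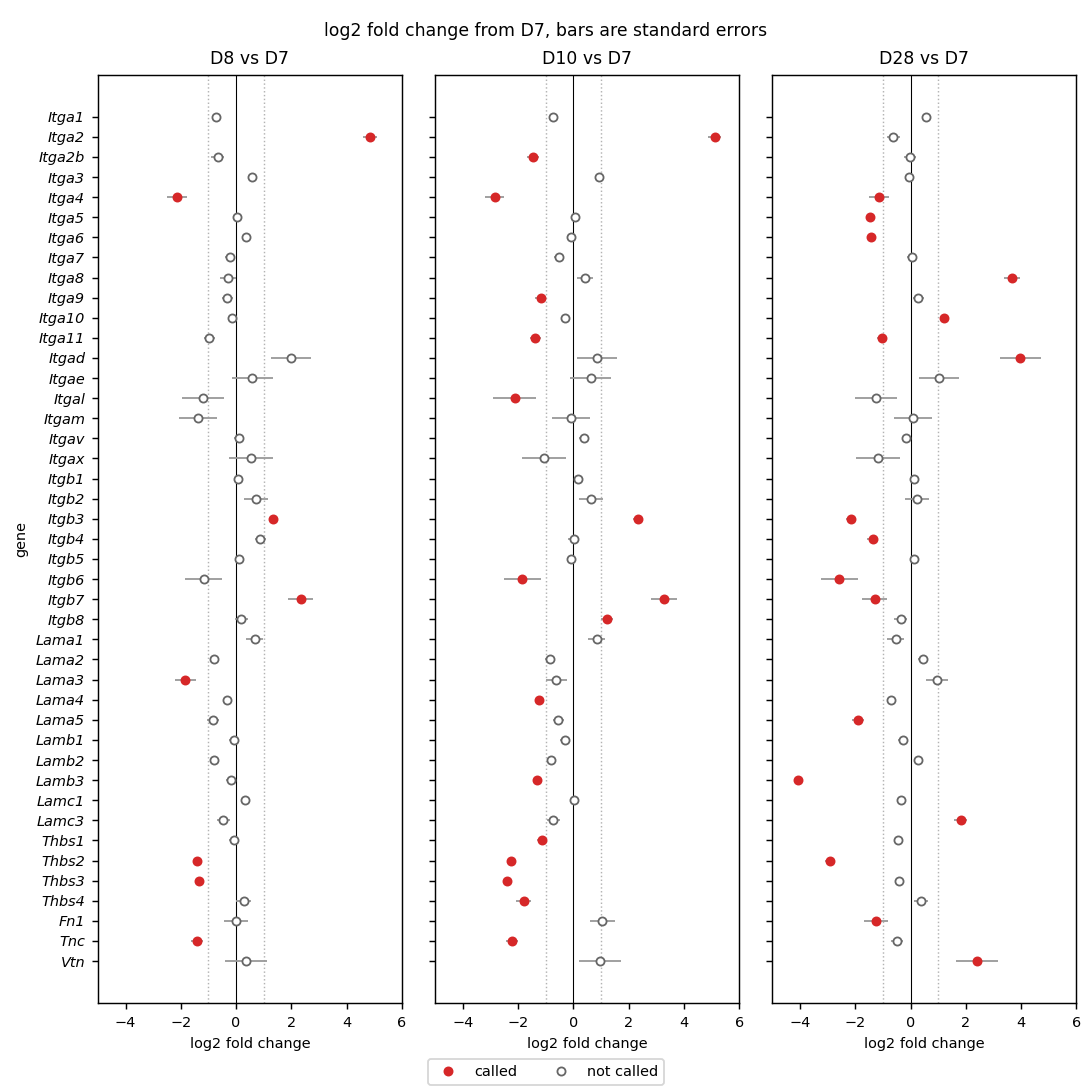
The log2 fold change (horizontal axis) of 43 of the 44 genes (vertical axis) at D8, D10 and D28 against D7, with bars for the standard error, filled points for called genes and dotted lines at the fold threshold of 1. The 4 thrombospondins lie left of 0 at D10, and at D28 Itga8 (3.68) and Lamb3 (-4.06) lie on opposite sides.

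The genes that act beside these receptors and ligands were described from 3 lists. Of 33 genes of the adhesion complex inside the cell, 32 were tested, and 2 were higher and 1 lower at D10 than at D7 (9.38% of the list, beside 18.9% of all genes tested). These were Zyx (zyxin, log2 fold change 2.14 ± 0.22, adjusted p = 1.7e-06), Parvb (1.60 ± 0.16, adjusted p = 1.8e-06) and Tln2 (a talin, -1.30 ± 0.13, adjusted p = 1.5e-06). At D28, 3 were higher, led by Nexn (1.87 ± 0.20) and Fermt3 (1.54 ± 0.51), and Actn1 was lower (-1.08 ± 0.12). These 4 were 12.5% of the list, beside 17.3% of all genes tested. Zyx and Parvb, whose products sit at focal adhesions, were both lower at D28 than at D10 (-2.32 and -2.39). The list's median log2 fold change was -0.05 at D10 and 0.05 at D28, beside 0.05 and -0.03 for all genes tested.

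Of 22 basement membrane partners, 2 were higher and 8 lower at D10 than at D7 (45.5%, beside 18.9% of all genes tested). The rises were Col4a3 (1.48 ± 0.54, adjusted p = 0.039) and Col4a4 (1.01 ± 0.35, adjusted p = 0.03), which are type IV collagen chains, and the largest falls were Frem2 and Nid2, a nidogen that links laminin to type IV collagen (-2.95 ± 0.24, adjusted p = 1.9e-07). Frem2 was at or under 3 reads in all D10 libraries and at least 4.72-fold lower than at D7. At D28, 3 were higher, led by Npnt and Egfl6 (3.73 ± 0.65, adjusted p = 0.00031), and 5 lower, led by Frem2 (-2.67 ± 0.69) and Ntn4 (-2.49 ± 0.31, adjusted p = 1.2e-05). These 8 were 36.4% of the list, beside 17.3% of all genes tested. Nid2 was back at 12.41 ± 0.14 (SD) at D28, against 11.88 ± 0.15 at D7. The list's median was -0.57 at D10 and 0.23 at D28, beside the 0.05 and -0.03 of all genes.

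Of 29 matricellular relatives and receptors, 4 were higher and 10 lower at D10 than at D7 (48.3%, beside 18.9% of all genes tested). Tnr and Ccn3 (2.70 ± 0.38, adjusted p = 4.6e-05) rose most, and Tnr, at or under 3 reads in all D7 libraries, was at least 3.63-fold higher. The largest falls were Ibsp, bone sialoprotein (-6.34 ± 0.29, adjusted p = 8e-10), and Tnn, a tenascin (-4.55 ± 0.16, adjusted p = 1e-10). At D28, 4 were higher, led by Cd36, a thrombospondin receptor also of fat cells (3.76 ± 0.23, adjusted p = 8.9e-09), and Sparcl1 (2.04 ± 0.14), and 7 lower, led by Tgfbi (-6.02 ± 0.18, adjusted p = 5.2e-12) and Tnn (-2.63 ± 0.16). The 11 called at D28 were 37.9% of the list, beside 17.3% of all genes tested. The adipocyte markers given above rose in the same comparison as Cd36. The list's median was -0.59 at D10 and -0.43 at D28, where all genes had 0.05 and -0.03.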

How the data were processed

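RNA-seq values of 12 pellet libraries, 3 at each of 4 time points, were taken as the authors deposited them. According to the supplementary methods and the submitters' processing notes, reads were trimmed with Trimmomatic 0.36, aligned with HISAT2, counted with HTSeq, equalized between samples and transformed. The deposited unit is therefore log2, that of the equalized count plus 1. Equalization fixes the value of each rank, so ratios between abundant genes are approximate. The strand setting of the counting is not given in the sources used here, and the sources name both GRCm38 and a human build, while the symbols are those of mouse. Positions are those of GRCm38 (GENCODE M21, in which 44 of 44 symbols matched).

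A gene entered the tests if its log2 value reached 1 in 3 or more libraries, which 17674 of 28244 did. The means of the 4 time points were fitted on all 12 libraries with limma 3.58.1 in R 4.3.3 (variance trend, residual degrees of freedom 8, prior 7.23), with two-sided moderated tests and Benjamini-Hochberg adjustment over all genes tested. Where no library of a time point exceeded 3 reads, judged by where a value stands in the ladder of low values of its library, fold changes are bounds computed with values raised to 2.87, the highest 3-read level. Such levels cover counting error only. Per-length levels, promoter searches and figures used Python 3.11.15 (numpy 2.4.6, pandas 2.3.3, matplotlib 3.10.9), and the fit was tested on simulated data. Promoter windows are from RefSeq.

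Full values are given for genes called at least once with a highest time point mean of at least 8, and the others by mean or range. Itgb7 and several low genes were shown by library after their values were seen. Of each partner list, the largest 2 rises and 2 falls among called genes at D10 and D28 against D7 are named. The genes, lists and tests were chosen with earlier results of these data known. Alternatives covered the filter, low values, normalization, variance trend, the rule of the study, a replicate block, the fold threshold and each library left out. The normalization alternative (median-of-ratios scaling) was applied to the values already equalized, so it cannot test the equalization itself. The order of levels with another gene length was added after seeing the data. The study's other assays were not analysed here, and the sources give no batch or date. Values of 1 of the 44 genes are not reported here.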

Additional observations from a re-analysis of the deposited data

How the results depend on the processing

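Of the 73 calls of the 44 genes, that of Vtn at D28 included, 57 held under each of the 18 or 19 other settings in which they were tested with the fold threshold of 1, 16 were lost under at least 1, and 0 changed direction. With each library left out in turn, the higher and lower counts ranged from 3 to 5 and 5 to 6 at D8 against D7, from 0 to 3 and 3 to 5 at D10 against D8, from 4 to 5 and 11 to 13 at D10 against D7, from 14 to 15 and 11 to 12 at D28 against D10, and from 4 to 5 and 8 to 12 at D28 against D7. At D10 against D8, the rises of Itgb8 and Lama3 were both lost without D10 replicate 1 (0.91 and 0.78). Without a fold threshold, 6 were higher and 11 lower at D8 against D7, and 11 were lower at D10 against D8. A threshold of 2 gave 1 lower at D8 against D7, 0 higher and 1 lower at D10 against D8, 5 lower at D10 against D7, 4 higher and 5 lower at D28 against D10, and 3 higher and 4 lower at D28 against D7. With values under the level of 3 reads raised to it, 1 was higher at D10 against D8 and 3 at D28 against D7, and when genes had to average 3 or more on the log2 scale, 3 were higher at D28 against D7. The cause was not tested. Median-of-ratios scaling moved the median of all genes by 0.11 at D28 against D10. The replicate numbers did not pair the samples, with correlations of deviations from -0.058 to 0.066 over 18 pairs, 0 of them over 0.1. A replicate block gave 12 lower at D10 against D7 and 11 lower at D28 against D7, where 13 and 12 were found without it, and left the other counts as they were. Depth limits the low genes: differences at or under 3 reads were not detectable.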
